A study of Homo sapiens with 24 samples.

Results

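The comparison described here is the effect of ADAR1 knockdown in HCC1806 against its effect in MDAMB468, a pair of basal-like, triple-negative human breast cancer cell lines. It used the 12 libraries of these lines, of the 24 samples in the series. In each line, lentivirus delivered either a short hairpin RNA that targets ADAR1 (shADAR1) or a hairpin without a target (shNT), and each of the 4 groups had 3 biological replicates. All groups were grown in DMEM with fetal bovine serum, infected for 24 h and kept in puromycin (2 µg/ml) during the next 72 h. The controls therefore carry a hairpin vector and had the drug as well, and no untransduced cells were compared. Whether more than 1 ADAR1 hairpin was used is not given in the sources used here. Ribosomal RNA was depleted from total RNA, so transcripts without a poly(A) tail, such as most histone mRNAs, are also counted. HCC1806 was derived from a squamous breast carcinoma, and MDAMB468 from a pleural effusion of a breast adenocarcinoma with amplified EGFR. For each gene the log2 fold change of shADAR1 against shNT was estimated in each line, and the value of MDAMB468 was subtracted from that of HCC1806. A positive difference therefore means that the knockdown response was higher in HCC1806.

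ADAR1, the product of the ADAR gene, converts adenosine to inosine in double-stranded RNA and so keeps a cell's own RNA from being read as foreign by sensors such as MDA5 and PKR. Loss of ADAR1 can lead to interferon signalling and, through PKR, to phosphorylation of the translation factor eIF2α, which slows translation and induces ATF4 and its targets (the integrated stress response). MDM2, named in the title of the series beside lipid remodelling and ferroptosis, is the ubiquitin ligase that controls p53. The series' question for these samples is how ADAR1 loss alters expression in triple-negative cells, and the subtraction asks in which genes the lines differ.

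The libraries held 24199130 to 89073980 counted reads. The first principal component of log2 CPM (a gene's reads scaled to the library's size) carried 87.2% of the variance and separated the lines. Both lines had epithelial markers (EPCAM 286 to 322 CPM in HCC1806 and 250 to 278 in MDAMB468) and the basal keratin KRT5 (1080 to 1380 and 1150 to 1340 CPM). TP63 was at 154 to 217 CPM in HCC1806 and at 0.792 to 1.6 in MDAMB468, and EGFR at 536 to 658 and at 4760 to 5340 CPM. The progesterone receptor gene PGR did not exceed 0.289 CPM, and ESR1 reached 27.2 CPM in HCC1806 and 8.32 in MDAMB468. The leukocyte markers PTPRC and CD3E and the fibroblast markers DCN, LUM and COL1A2 did not exceed 0.281 CPM in any library, while CD68 reached 54 CPM and COL1A1 40.1 CPM in HCC1806. Replicates within HCC1806 differed widely in some genes, such as FN1 (49.8 to 288 CPM) and KRT14 (21.1 to 217 CPM).

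ADAR itself (chr1:154582062-154627999, minus strand) was measured first, as a check of the labels. In HCC1806 it was at 88.0, 130.2 and 139 CPM with shADAR1 and at 377, 340.2 and 363.5 CPM with shNT. In MDAMB468 it was at 125, 172 and 176 CPM with shADAR1 and at 417, 406 and 452 CPM with shNT. In both lines every knockdown library lay below every control library. The log2 fold change was -1.62 (SE 0.109) in HCC1806 and -1.44 (SE 0.108) in MDAMB468, and the difference of -0.17 (SE 0.151) did not pass the test (edgeR adjusted p = 0.779). The sign of that difference turned when HCC1806 replicate 1, the library with the lowest ADAR level, was left out with its control (0.06, adjusted p = 0.952).

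MDM2 rose in both lines. It was at 101, 89.0 and 97.9 CPM with shADAR1 and 78.2, 68.0 and 75.7 with shNT in HCC1806, and at 115, 97.03 and 108 against 70.8, 73.5 and 72.8 in MDAMB468. The arms did not overlap in either line. MDM2 overlaps the carboxypeptidase M gene on the other strand, and the use of strand in counting is not given in the sources used here. The log2 rise was 0.38 (SE 0.0574, edgeR adjusted p = 0.00143) in HCC1806 and 0.55 (SE 0.0575, adjusted p = 6.68e-05) in MDAMB468. The difference, -0.18 (SE 0.0811), had an adjusted p of 0.493. The p53 target list held 1 gene that rose in HCC1806 (GADD45A, 0.30) and 2 that rose in MDAMB468 (SUSD6, 0.32, and BBC3, 0.53) among 29 tested. Over all genes, 2.09% rose in HCC1806 and 1.74% in MDAMB468. No p53 target differed between the lines by the edgeR test, with 3 of the 29 at an unadjusted p under 0.05 (9.89% of all genes were). The median difference was 0.015 against -0.0066 over all genes.

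Across 19659 genes, the response to knockdown differed between the lines in 83 genes, 0.422% of those tested. Of these, 47 (0.239%) were higher in HCC1806 and 36 (0.183%) were lower. For comparison, the knockdown changed 649 genes (3.3%) in HCC1806, of which 410 rose (2.09%) and 239 fell (1.22%), and 552 genes (2.81%) in MDAMB468, of which 343 rose (1.74%) and 209 fell (1.06%). Called in the same direction in both lines were 145 genes, 22.3% of the HCC1806 calls and 26.3% of the MDAMB468 calls. A further 3 genes were called in opposite directions. Of the 47 genes that were higher in HCC1806, 40 rose in HCC1806 and were not called in MDAMB468. Another 4 of them fell in MDAMB468 and were not called in HCC1806, 2 fell in both lines, and 1 rose in HCC1806 and fell in MDAMB468. Of the 36 that were lower, 22 rose in MDAMB468 and were not called in HCC1806, 10 fell in HCC1806 and were not called in MDAMB468, 2 fell in HCC1806 and rose in MDAMB468, and 2 (BZW2 and SLC4A11) were called in neither line alone.

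**Figure D1:**
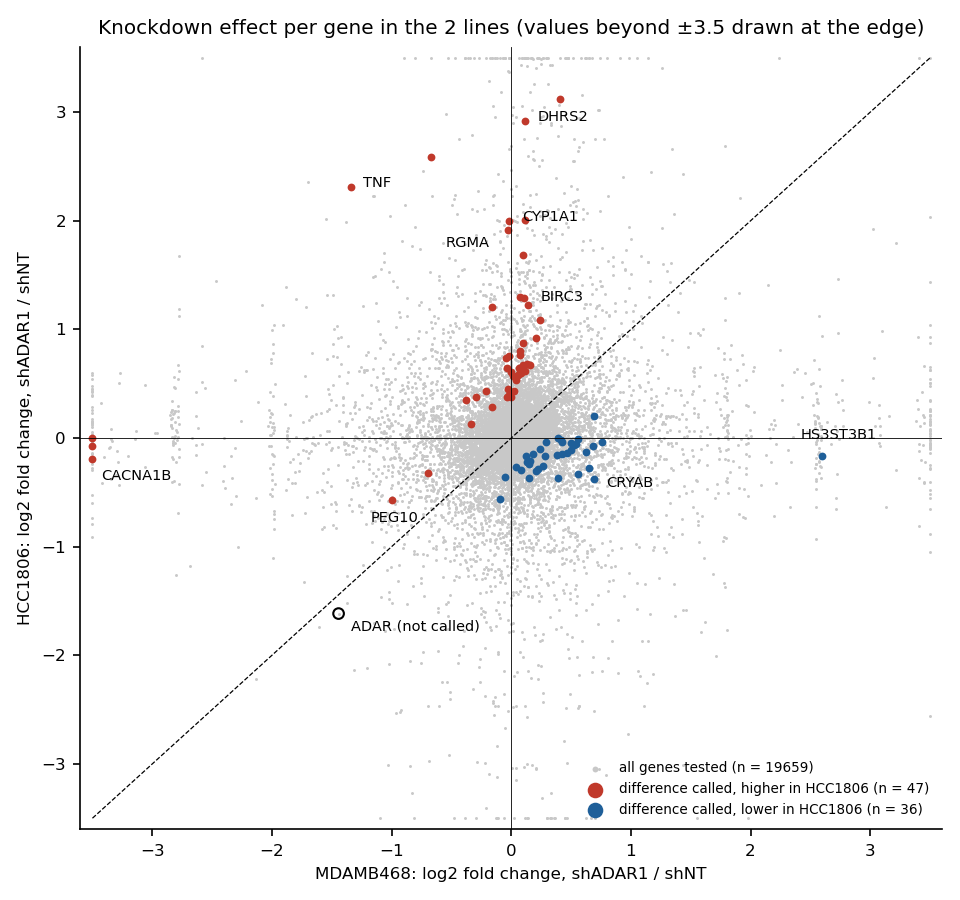
Log2 fold change of shADAR1 against shNT for every gene tested, MDAMB468 on the horizontal axis and HCC1806 on the vertical axis, with the 47 genes higher and the 36 genes lower in HCC1806 coloured. Of the red genes, 40 rose in HCC1806 only by the calls and lie near the vertical axis, the blue genes below the diagonal and many of them to the right of 0, and ADAR lies near the dashed line of equal response.

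These calls rest on treating libraries with the same replicate number within a line as a pair. With no replicate block, edgeR called 0 genes for the difference (481 genes, 2.45%, had an unadjusted p under 0.05), against 1944 genes (9.89%) at that level with the block. All 83 genes kept their direction without the block. With every pair complete, dropping the block hardly moves the fitted effect, so kept direction gives the calls no support. Of the 83, 42 had an unadjusted p under 0.05 without the block. Same-numbered libraries deviated together in HCC1806 (correlations of 0.281, 0.381 and 0.494) and more weakly in MDAMB468 (0.188, 0.196 and 0.077), and blocking HCC1806 alone left 1 call, DHRS2. The same-numbered log2 differences of the lines did not overlap in 81 of the 83 genes, while 16.6% of all genes tested showed such a separation (7.78% with HCC1806 higher and 8.79% with HCC1806 lower). Because the test is made of the same pairs, that count is a description.

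Among genes with a higher response in HCC1806, the smallest adjusted p was that of DHRS2 (chr14:23630115-23645639), which encodes a short-chain dehydrogenase/reductase known to bind MDM2. DHRS2 was at 89.4, 37.3 and 55.3 CPM with shADAR1 and at 10.4, 9.23 and 4.18 CPM with shNT in HCC1806. In MDAMB468 it was at 4.98, 5.23 and 4.86 CPM against 3.83, 5.38 and 4.48 CPM. The arms were separate in HCC1806 and overlapped in MDAMB468. The log2 rise was 2.92 (SE 0.20, edgeR adjusted p = 9.65e-07) in HCC1806 and 0.12 (SE 0.232, adjusted p = 0.925) in MDAMB468, a difference of 2.80 (SE 0.306, adjusted p = 0.000844). It was called again without any single pair of libraries.

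CYP1A1, a cytochrome P450 induced through the aryl hydrocarbon receptor, was at 11.2, 6.81 and 5.40 CPM against 1.66, 3.30 and 0.941 CPM in HCC1806. In MDAMB468 it was at 6.03, 2.05 and 3.09 CPM against 5.19, 2.12 and 3.55 CPM. The pair differences were 2.73, 1.03 and 2.47 in HCC1806 and 0.215, -0.048 and -0.196 in MDAMB468, so the lines did not overlap (difference 2.02, SE 0.350, edgeR adjusted p = 0.0242). Its relative CYP1B1 was far more abundant in MDAMB468 (431 ± 111 CPM with shNT, SD, n = 3) than in HCC1806 (92.2 ± 9.14). CYP1B1 rose by 0.39 in HCC1806 and had a log2 change of -0.021 in MDAMB468 (difference 0.41, adjusted p = 0.0246). In the list of NRF2 target and xenobiotic genes, DHRS2, CYP1A1 and CYP1B1 were the only members of 33 with a called difference (0.422% of all genes had one). The list's median difference was 0.012, and 17 of the 33 were above 0, against 9575 of 19659 over all genes. NUDT8, a nudix hydrolase gene, was also higher in HCC1806 (difference 1.18, adjusted p = 0.0486). A promoter search for the letters GCGTG, taken as a xenobiotic response element, matched 26 of 63 genes with a called difference (41.3%). It matched 40.6% of all promoters.

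RGMA (chr15:93035273-93089204), a membrane-anchored guidance molecule and co-receptor for bone morphogenetic proteins, had the next firmest call in this direction. It was at 8.75, 4.497 and 9.11 CPM against 1.299, 2.03 and 2.16 CPM in HCC1806, and at 14.8, 13.4 and 16.04 CPM against 17.7, 13.4 and 14.4 CPM in MDAMB468. The arms were separate only in HCC1806, and MDAMB468 had the higher level in every library. The difference was 1.94 (SE 0.256, edgeR adjusted p = 0.00518), called again without any single pair. ENSG00000248596 (chr5:176143085-176199295), a processed transcript that overlaps ENSG00000251623 on the other strand, had a difference of 2.72 (adjusted p = 0.0292) with 15, 38 and 13 counts in the HCC1806 controls and 305, 146 and 476 with shADAR1.

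**Figure D2:**
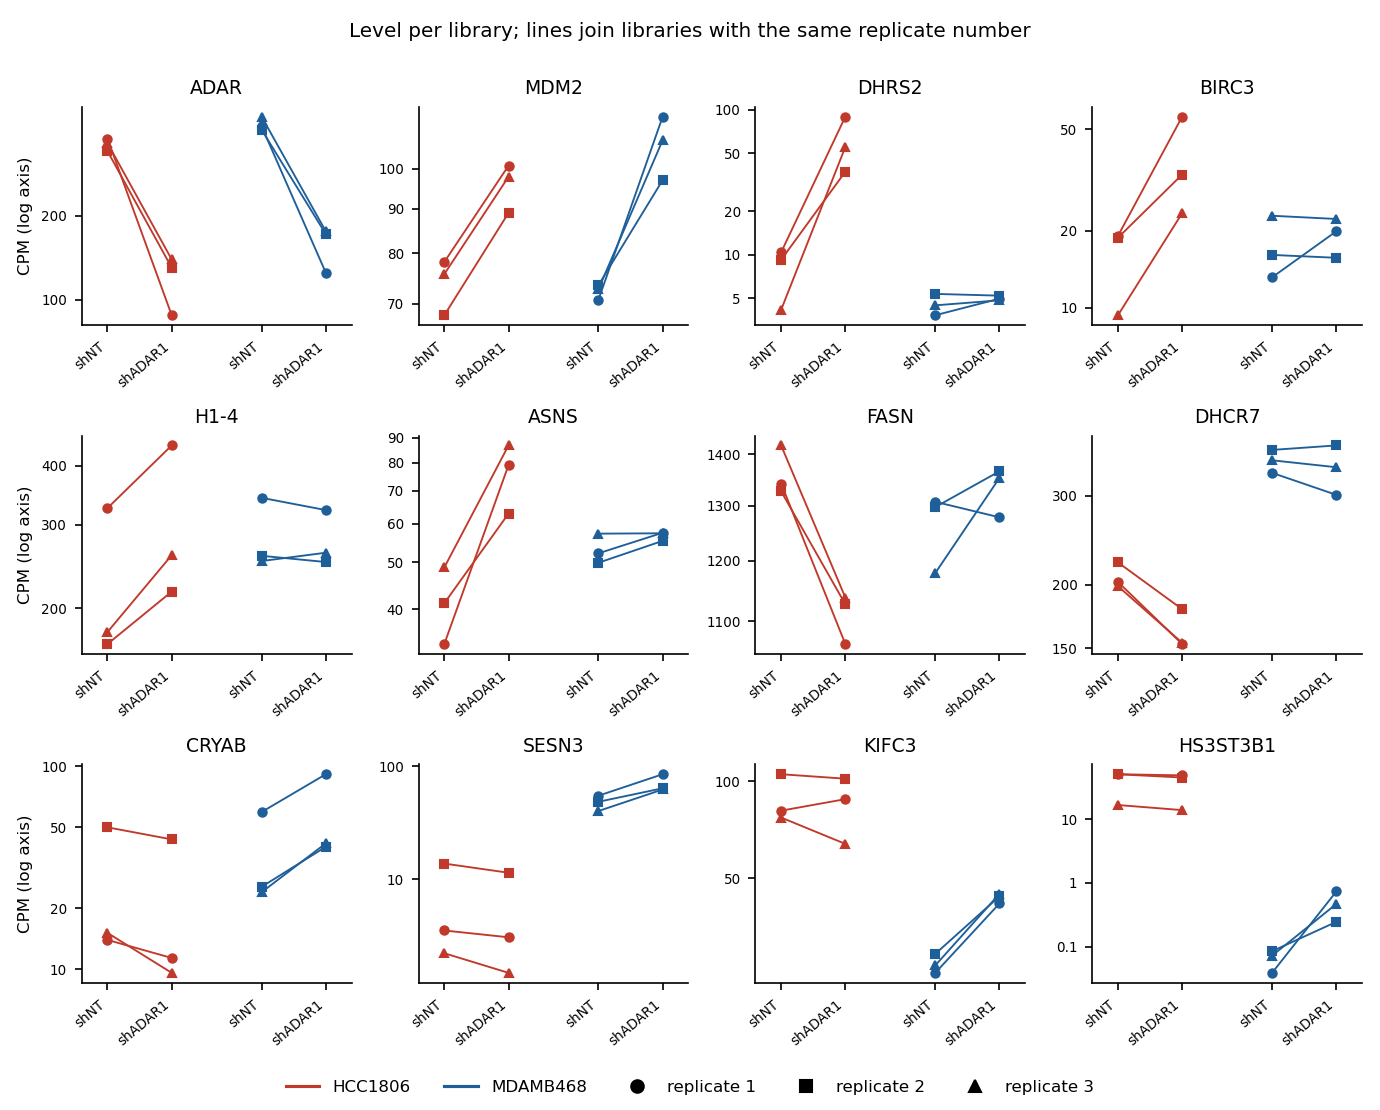
CPM of 12 genes in each of the 12 libraries, on a log axis per gene, with shNT joined to shADAR1 of the same replicate number. DHRS2, BIRC3, H1-4 and ASNS rise in every HCC1806 pair, CRYAB, SESN3, KIFC3 and HS3ST3B1 rise in every MDAMB468 pair, and ADAR falls in all 6 pairs.

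Histones package DNA, and most of their genes are transcribed while DNA replicates. Of 29 tested members of the histone list, 26 rose in HCC1806 (2.09% of all genes did) and none fell. None was called in MDAMB468 by edgeR or by DESeq2 (edgeR called 2.81% of all genes there). At an unadjusted p under 0.05, 3 of the 29 were higher in MDAMB468. The difference was called for 9 of the 29, all higher in HCC1806 (background 0.239%). All 29 differences lay above 0, against 9575 of 19659 over all genes. The median log2 change was 0.45 in HCC1806 and 0.07 in MDAMB468, and over all genes it was 0.0049 and 0.011. Among all 62 genes with a histone symbol, a set counted after its values were seen, 16 were called higher and 50 rose in HCC1806. Of the 16, 14 lie on chromosome 6, where the replication-dependent histone genes cluster, and of the 62, 48 do.

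The replicate pairs of MDAMB468 did not behave alike for these genes. The median pair difference of the 29 genes was 0.542, 0.393 and 0.517 in HCC1806, and -0.20, 0.134 and 0.291 in MDAMB468. In the first MDAMB468 pair 1 of the 29 genes was above 0, in the second 23, and in the third 28. The highest MDAMB468 pair was still below the lowest HCC1806 pair. Without MDAMB468 replicate 1, 5 of the 29 rose in MDAMB468 and 7 differences were called. In HCC1806, 15 of the 29 rose without its replicate 1, 0 with no replicate block and 11 with the block in HCC1806 only. The 9 called differences became 0 without HCC1806 replicate 1, 3 without HCC1806 replicate 3, 2 without MDAMB468 replicate 2 and 19 without MDAMB468 replicate 3. The cell cycle list, whose genes mark proliferating cells, had 4 of 41 members that rose in HCC1806 (E2F1, E2F8, RRM2 and TPX2) and 2 that fell in MDAMB468 (CDC6 and CDC25A). Over all genes, 2.09% rose in HCC1806 and 1.06% fell in MDAMB468. No cell cycle gene had a called difference (2 of 41 at an unadjusted p under 0.05, against 9.89% of all genes), and the median difference was 0.029. The part of these genes in the histone result was not tested, and in bulk RNA a larger share of cells in one state cannot be told apart from more RNA per cell.

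Called differences included linker histone genes, whose proteins bind DNA between nucleosomes. H1-4 (chr6:26156391-26157050) was at 441, 217 and 259 CPM against 325, 168 and 178 CPM in HCC1806 and at 322, 250.3 and 262 against 342, 258 and 252 CPM in MDAMB468. The arms overlapped in both lines, but each of the 3 HCC1806 pairs (0.44, 0.367 and 0.54) exceeded each MDAMB468 pair (-0.086, -0.044 and 0.059). Its difference was 0.47 (SE 0.0654, edgeR adjusted p = 0.00621), with adjusted p = 0.0183 for H1-3 (0.52) and 0.0264 for H1-2 (0.41). H3C12 had a difference of 1.23 (adjusted p = 0.0452), on a level of 0.725 to 2.503 CPM in HCC1806 and 42.6 to 62.3 CPM in MDAMB468. Histone genes are near-identical copies in part, and reads may be split among them.

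The promoters of the H1 genes on chromosome 6 with a called difference are shown because they share an arrangement. The genes were chosen by that call, and the promoters of other H1 genes were not compared. The sequences are from RefSeq on GRCh38.p14, run 5′ to 3′ on the gene's strand and end at the base before the RefSeq start of H1-4 (chr6:26156199-26156328, plus strand), H1-3 (chr6:26234988-26235117, minus strand) and H1-2 (chr6:26056471-26056600, minus strand). Capitals mark the H1 box, AAACACA, and the CCAAT box, both known elements of H1 promoters.
H1-4: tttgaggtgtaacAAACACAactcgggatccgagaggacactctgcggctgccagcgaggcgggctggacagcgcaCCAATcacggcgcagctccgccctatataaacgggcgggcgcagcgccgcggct
H1-3: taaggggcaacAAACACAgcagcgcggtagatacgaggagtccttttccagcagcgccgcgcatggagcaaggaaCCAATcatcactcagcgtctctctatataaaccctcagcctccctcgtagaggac
H1-2: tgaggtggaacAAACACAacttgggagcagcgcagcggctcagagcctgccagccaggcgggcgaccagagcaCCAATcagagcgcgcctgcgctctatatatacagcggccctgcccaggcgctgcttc
The H1 box began 117, 119 and 119 bases before the start in H1-4, H1-3 and H1-2, and the CCAAT box followed it by 63, 64 and 62 bases. H1-2 held another AAACACA match upstream of the printed stretch. Searched on both strands over 250 bases before and 50 after the start, AAACACA was in 6.94% of 27305 promoters and in 3 of the 13 called histone genes that had a promoter in the table. CCAAT was in 39.7% of all promoters and in 12 of those 13. Promoters of histone genes without a called difference were not counted, so the shares are not tied to the call. A match describes letters and shows no binding.

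Inflammatory genes also rose in HCC1806. In the list of cytokine and NF-κB target genes (NF-κB is the transcription factor that tumour necrosis factor and double-stranded RNA sensors activate), 10 of 32 rose in HCC1806 (2.09% of all genes did). In MDAMB468 1 (TNFSF10) rose (1.74% of all genes did), and none fell in either line. The difference was called for 3 of 32 (BIRC3, TNF and CXCL2), all higher in HCC1806 (background 0.239%). Above 0 were 28 of the 32 differences, against 9575 of 19659 over all genes. The median change was 0.42 in HCC1806 and 0.0002 in MDAMB468. By pair it was 0.61, 0.241 and 0.393 in HCC1806 and -0.0062, 0.013 and -0.027 in MDAMB468, with no overlap. No difference in this list was called without HCC1806 replicate 1, without HCC1806 replicate 3 or without MDAMB468 replicate 2. Without HCC1806 replicate 1, 3 of the 32 rose in HCC1806, with no replicate block 0, and with the block in HCC1806 only 2.

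BIRC3 (chr11:102317450-102339403), which encodes the inhibitor of apoptosis cIAP2, was at 56.1, 33.3 and 23.5 CPM against 19.1, 18.8 and 9.35 CPM in HCC1806. In MDAMB468 it was at 19.9, 15.7 and 22.3 CPM against 13.2, 16.1 and 22.9 CPM. The HCC1806 arms were separate, and those of MDAMB468 overlapped. The difference was 1.08 (SE 0.177, edgeR adjusted p = 0.0154). TRAF1, an adaptor of tumour necrosis factor receptors, was at 10.7, 10.1 and 3.56 CPM against 2.28, 4.28 and 1.08 CPM in HCC1806 and between 2.07 and 2.65 CPM in all MDAMB468 libraries (difference 1.58, adjusted p = 0.0245). TNF had 218, 160 and 223 counts with shADAR1 and 8, 62 and 24 with shNT in HCC1806. In MDAMB468 it had 6 counts in each knockdown library and 12, 11 and 18 in the controls, so the difference of 3.65 (SE 0.659, adjusted p = 0.0264) rests on few reads there. The chemokine gene CXCL2 had a difference of 0.79 (adjusted p = 0.0368) and IRF1, a transcription factor induced by interferon and by NF-κB, one of 0.56 (adjusted p = 0.015).

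The promoters of BIRC3 and CXCL2 are printed because they hold matches to the NF-κB consensus, which p50 and p65 dimers are known to bind. The stretches are chr11:102317270-102317373 (plus strand) and chr4:74099248-74099288 (minus strand) from RefSeq, GRCh38.p14, and capitals mark the matches on either strand.
BIRC3: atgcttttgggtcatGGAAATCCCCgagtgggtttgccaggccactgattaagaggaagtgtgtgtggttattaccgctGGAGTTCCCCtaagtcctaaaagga
CXCL2: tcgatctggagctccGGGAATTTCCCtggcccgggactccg
The BIRC3 matches began 199 and 135 bases before the start, and the CXCL2 matches, on both strands and overlapping, 78 and 77 bases before it. The consensus was in 13.3% of all promoters and in 18 of the 29 (62.1%) listed inflammatory genes with a promoter, counted over 250 bases before and 50 after the start. The shorter pattern GGGANNNCC was in 26% and 27.6%, and the consensus was chosen after those shares were seen. Among genes called higher in HCC1806, 7 of 38 promoters held the consensus (18.4%). The promoters of TNF and TRAF1 held no match to either pattern.

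Of 41 interferon-stimulated genes tested, 1 (IRF1) rose in HCC1806 (2.09% of all genes did) and 1 (SAMD9L, 1.01) in MDAMB468 (1.74% of all genes did). None fell, and IRF1 alone differed between the lines (0.239% of all genes were called higher in HCC1806). The median change was 0.024 in HCC1806 and 0.039 in MDAMB468. SAMD9L, which was at 24.1 to 30.2 CPM in HCC1806 and at 0.339 to 1.72 CPM in MDAMB468, had a difference of -0.96 that missed the threshold (edgeR adjusted p = 0.0832). In the list of double-stranded RNA sensing genes, ADAR was the only member of 16 called in either line (3.3% of all genes were called in HCC1806 and 2.81% in MDAMB468). No difference was called, and no member had an unadjusted p under 0.05 for it (9.89% of all genes did). Among its named members, IKBKE had a difference of 0.28 (edgeR adjusted p = 0.549).

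Genes of the integrated stress response, which adjusts amino acid supply and translation under stress, rose in HCC1806, and a few of them rose in MDAMB468. Of 33 tested, 14 rose in HCC1806 (2.09% of all genes did) and 3 (ATF3, DDIT4 and FBXO32) in MDAMB468 (1.74% of all genes did). In the edgeR test none fell, while DESeq2 called 2 as lower in MDAMB468. The difference was called for 2, ASNS and ALDH1L2 (0.239% of all genes were called higher). Above 0 were 24 of 33 differences, against 9575 of 19659 over all genes. The median change was 0.22 in HCC1806 and 0.08 in MDAMB468. By pair it was 0.342, 0.142 and 0.147 in HCC1806 and 0.109, 0.10 and -0.0053 in MDAMB468. DDIT4 and ATF3 rose in both lines, DDIT4 by 0.44 in HCC1806 and 0.73 in MDAMB468, and ATF3 by 0.46 and 0.74. The 14 rises in HCC1806 became 0 with no replicate block, 1 with the block in HCC1806 only, 3 without HCC1806 replicate 1 and 8 without HCC1806 replicate 2, and 1 difference was called without HCC1806 replicate 1 and likewise without HCC1806 replicate 3.

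ASNS (chr7:97852118-97872542), the asparagine synthetase gene and a standard ATF4 target, was at 79.1, 62.9 and 86.8 CPM against 34.0, 41.2 and 48.8 CPM in HCC1806. In MDAMB468 it was at 57.5, 55.3 and 57.3 CPM against 52.1, 49.9 and 57.2 CPM. The arms were separate in HCC1806 and differed little in MDAMB468. The log2 rise in HCC1806 was 0.88 (SE 0.0846), and the difference was 0.78 (SE 0.119, edgeR adjusted p = 0.00913), called again without any single pair. ALDH1L2, a mitochondrial enzyme of one-carbon metabolism whose gene overlaps NOPCHAP1 on the other strand, rose by 0.43 in HCC1806 and had a change of -0.21 in MDAMB468 (difference 0.64, adjusted p = 0.0229). PCK2, the mitochondrial phosphoenolpyruvate carboxykinase gene and outside the list, rose by 0.77 in HCC1806 (difference 0.69, adjusted p = 0.00913). It is named here after its values were seen.

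The ASNS promoter carries the known CCAAT-enhancer binding protein and ATF response element. In chr7:97872454-97872491 (minus strand, RefSeq, GRCh38.p14) capitals mark the match to TGATGNAA.
ASNS: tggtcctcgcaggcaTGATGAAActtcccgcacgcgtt
The match began 68 bases before the start. The PCK2 promoter held no match. The letters, searched on both strands, were in 4.46% of all promoters, in 9 of 28 listed integrated stress response genes with a promoter (32.1%) and in 3 of 38 genes called higher in HCC1806 (7.89%).

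**Figure D3:**
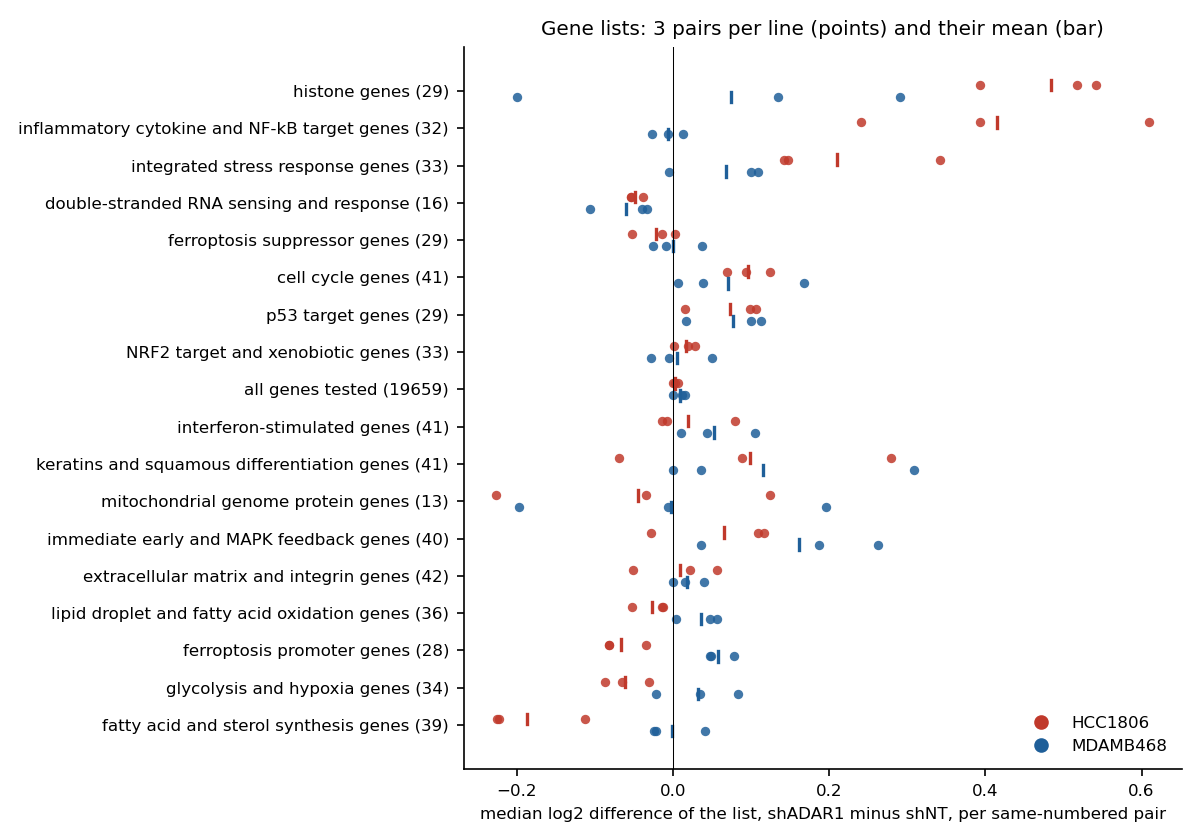
Median log2 difference of each gene list, shADAR1 minus shNT, in each of the 3 same-numbered pairs of HCC1806 (red) and MDAMB468 (blue), with the number of genes tested in brackets and a bar at the mean of the 3 pairs. The pairs of the lines are apart for the histone (0.393 to 0.542 against -0.20 to 0.291) and inflammatory lists. They are also apart for the integrated stress response, fatty acid and sterol, ferroptosis promoter, glycolysis and hypoxia, and lipid droplet lists.

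Genes of fatty acid and sterol synthesis, most of which are driven by the SREBP transcription factors, went the other way. Of 39 tested, 9 fell in HCC1806 (1.22% of all genes did) and none rose. In MDAMB468 1 (SREBF1, 0.36) rose (1.74% of all genes did) and none fell. The difference was called for 4, FASN and DHCR7 among them, all lower in HCC1806 (background 0.183%). Above 0 were 5 of the 39 differences, against 9575 of 19659 over all genes. The median change was -0.19 in HCC1806 and -0.01 in MDAMB468. By pair it was -0.225, -0.223 and -0.113 in HCC1806 and -0.022, 0.042 and -0.024 in MDAMB468. No difference in this list was called without HCC1806 replicate 1, without HCC1806 replicate 2 or without MDAMB468 replicate 2, and 2 were called without HCC1806 replicate 3. The 9 falls in HCC1806 became 0 with no replicate block, 3 with the block in HCC1806 only, 2 without HCC1806 replicate 1 and 15 without MDAMB468 replicate 3.

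FASN (chr17:82078338-82098332), fatty acid synthase, was at 1064, 1127 and 1138 CPM against 1342, 1327 and 1418 CPM in HCC1806. In MDAMB468 it was at 1278, 1366 and 1353 against 1307, 1297 and 1179 CPM. The arms were separate in HCC1806 and overlapped in MDAMB468. The difference was -0.38 (SE 0.0663, edgeR adjusted p = 0.0245). DHCR7, which makes cholesterol from 7-dehydrocholesterol, was at 153, 179 and 154 against 203, 221 and 199 CPM in HCC1806 and at 301, 377 and 341 against 333, 369 and 352 CPM in MDAMB468 (difference -0.31, adjusted p = 0.0464). SCD, MVD, ACLY and MSMO1 also fell in HCC1806, by 0.28, 0.33, 0.27 and 0.44. A promoter search for the sterol response element, TCACNCCAC, matched 1 of 31 listed genes (3.23%) and 1.39% of all promoters. It matched 0 of the 63 promoters of genes with a called difference, DHCR7 among them.

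The ferroptosis lists held calls in each line and few called differences. Over all genes, the knockdown changed 3.3% in HCC1806 and 2.81% in MDAMB468, and 0.422% differed between the lines. Ferroptosis is the iron-dependent death of cells by lipid peroxidation. Among 29 suppressor genes, FTH1 (0.24) and MBOAT1 (0.38) rose and DHCR7 and SCD fell in HCC1806, and HSPB1 (0.22) and MBOAT2 (0.25) rose in MDAMB468. Only DHCR7 had a called difference. Among 28 promoter genes, 2 rose (CHAC1 and AGPS) and 3 fell (STEAP3, ACO1 and TFRC) in HCC1806, and SAT1 rose and ACSL4 fell in MDAMB468. No difference was called (8 of 28 at an unadjusted p under 0.05, against 9.89% of all genes). The median difference was 0.029 for suppressor genes and -0.082 for promoter genes, of which 5 of 28 were above 0 (9575 of 19659 over all genes). By pair the promoter genes' median was -0.082, -0.034 and -0.082 in HCC1806 and 0.048, 0.078 and 0.048 in MDAMB468, with no overlap. ACSL4, which loads polyunsaturated fatty acids into phospholipids, was at 18.2, 18.6 and 18.6 CPM against 24.8, 23.7 and 24.8 CPM in MDAMB468 and at 38.2, 50.9 and 35.7 against 46.2, 53.9 and 43.1 CPM in HCC1806. Its difference was 0.19 (SE 0.092, edgeR adjusted p = 0.511). Among 36 lipid droplet and fatty acid oxidation genes, G0S2 rose and PLIN3 fell in HCC1806, ACSL4 fell in MDAMB468, and no difference was called (1 at an unadjusted p under 0.05).

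Genes that responded in MDAMB468 and were not called in HCC1806 were a mixed group without a list that gathered them. HS3ST3B1 (chr17:14301083-14349404), a heparan sulfate sulfotransferase gene, had 19, 14 and 31 counts with shADAR1 and 1, 4 and 4 with shNT in MDAMB468. In HCC1806 it was well expressed, at 49.0, 45.3 and 13.9 CPM against 51.1, 51.0 and 16.8 CPM. The difference was -2.76 (SE 0.393, edgeR adjusted p = 0.00764), and it rests on low levels in MDAMB468, at most 0.734 CPM. SESN3, a stress-induced inhibitor of mTORC1, was at 85.1, 63.9 and 62.3 against 54.9, 48.5 and 40.1 CPM in MDAMB468 and at 3.04, 11.4 and 1.47 against 3.49, 13.7 and 2.20 CPM in HCC1806 (difference -0.89, SE 0.121, adjusted p = 0.00614). KIFC3, a kinesin motor gene, was at 41.7, 43.9 and 44.7 against 25.4, 29.1 and 26.8 CPM in MDAMB468 and at 87.9, 102 and 63.8 against 80.9, 105 and 77.1 CPM in HCC1806 (difference -0.75, SE 0.0988, adjusted p = 0.00518). In all 3 genes the MDAMB468 arms were separate and the HCC1806 arms overlapped.

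PLEKHG4B, a guanine nucleotide exchange factor gene, rose by 0.76 in MDAMB468 and had a change of -0.04 in HCC1806 (difference -0.80, edgeR adjusted p = 0.00887). DYSF, the membrane repair protein dysferlin, rose by 0.50 in MDAMB468, where it was at 10.3 ± 2.26 CPM with shNT against 154 ± 23.6 in HCC1806 (SD, n = 3; difference -0.61, adjusted p = 0.00887). MTUS2 (-0.93), USP2 (-0.76), SOCS3 (-0.60) and SLITRK6 (-0.59) also had lower differences, with adjusted p-values of 0.0374, 0.044, 0.0426 and 0.0411. SOCS3, the feedback inhibitor of cytokine receptors, was at 12.9, 12.2 and 10.3 against 8.13, 8.97 and 7.09 CPM in MDAMB468 and did not separate by arm in HCC1806.

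CRYAB (chr11:111908565-111923722), the small heat shock protein αB-crystallin, was one of 3 genes called in opposite directions. It was at 91.3, 40.1 and 41.7 against 59.5, 25.5 and 24.0 CPM in MDAMB468 and at 11.4, 43.6 and 9.62 against 13.97, 50.01 and 15.1 CPM in HCC1806. The libraries of the arms overlapped in both lines, and the pair differences did not: 0.617, 0.653 and 0.798 in MDAMB468 and -0.294, -0.197 and -0.651 in HCC1806. The difference was -1.07 (SE 0.113, edgeR adjusted p = 0.000844). HSPB2 and C11orf52 overlap CRYAB on the other strand, and without strand in counting their reads could not be told apart. GM2A, the GM2 ganglioside activator, fell by 0.30 in HCC1806 and rose by 0.21 in MDAMB468. PORCN, which attaches the lipid to Wnt proteins, rose by 0.35 in HCC1806 and fell by 0.37 in MDAMB468.

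Calls among matrix and adhesion genes went in both directions within each line. Of 42 tested, 2 rose and 5 fell in HCC1806, and 5 rose and 3 fell in MDAMB468. The shares over all genes were 2.09% and 1.22% in HCC1806 and 1.74% and 1.06% in MDAMB468. The difference was called lower in HCC1806 for 4 genes, ITGB4, COL4A2 and FN1 among them (background 0.183%). It was called higher only for COL6A2 (background 0.239%). That call rests on 1, 0 and 11 counts in the MDAMB468 controls against 0 in each knockdown library. ITGB4, the hemidesmosomal integrin β4, was at 120.3, 99.01 and 114 against 101, 84.7 and 86.8 CPM in MDAMB468 and at 1410, 1397 and 1033 against 1456, 1430 and 1063 CPM in HCC1806 (difference -0.33, edgeR adjusted p = 0.0293); it overlaps GALK1 on the other strand. FN1 rose by 0.69 in MDAMB468 and had a change of 0.21 in HCC1806 (difference -0.49, adjusted p = 0.0465).

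The widest fitted differences came from genes almost absent from MDAMB468. CACNA1B, a neuronal calcium channel gene, had 0 counts in each MDAMB468 knockdown library and 8, 12 and 4 in the controls. Taking 3 counts over the group as the limit that 0 allows, it was at least 9.4-fold lower with shADAR1 in MDAMB468, and in HCC1806 it was at 4.96, 8.15 and 7.18 against 4.97, 10.6 and 8.02 CPM. COL6A2 had 1, 0 and 11 counts and APBA2 0, 12 and 0 in the MDAMB468 controls, again against 0 in every knockdown library, so that 1 library holds nearly all reads. Both were called by edgeR, and for both the pair differences of the lines overlapped. ID1, an inhibitor of helix-loop-helix factors and the fourth gene that fell in MDAMB468 and was not called in HCC1806, was at means of 9.82 against 12.4 CPM in MDAMB468 and 326 against 297 in HCC1806 and had a difference of 0.46 (adjusted p = 0.0154).

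PEG10, a gene derived from a retrotransposon, and DESI2, a deSUMOylating isopeptidase gene, fell in both lines and fell further in MDAMB468. PEG10 changed by -0.57 in HCC1806 and -1 in MDAMB468 (edgeR adjusted p = 0.0329 for the difference), and DESI2 by -0.32 and -0.70 (adjusted p = 0.0411).

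Immediate early genes, which respond to growth factor and stress signals without new protein synthesis, held calls in both lines. Of 40 tested, 11 rose and 1 fell in HCC1806 (2.09% and 1.22% of all genes did). In MDAMB468, 9 rose and 3 fell (1.74% and 1.06% of all genes). The difference was called higher in HCC1806 for 1 gene (background 0.239%) and lower for 1 (background 0.183%). KLF10, a transcription factor induced by TGF-β, was at 163, 107 and 119 against 81.6, 69.9 and 53.8 CPM in HCC1806 and at 54.1, 22.9 and 35.4 against 49.0, 20.8 and 28.3 CPM in MDAMB468 (difference 0.71, SE 0.116, edgeR adjusted p = 0.0154). NR4A2, an orphan nuclear receptor gene, rose by 0.47 in MDAMB468 and had a change of -0.14 in HCC1806 (difference -0.61, adjusted p = 0.041). Its level in MDAMB468 ranged from 29.7 to 270 CPM and followed the replicate number more than the arm. JUNB rose by 0.51 in HCC1806 and missed the threshold for the difference (0.46, adjusted p = 0.0512), and KLF6, FOSL2, JUND, ATF3 and AREG rose in both lines.

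The lists given next held no called difference. For their calls within a line, the shares over all genes were 3.3% in HCC1806 and 2.81% in MDAMB468. An unadjusted p under 0.05 for the difference was found for 9.89% of all genes. Among 41 keratin and squamous genes, 2 rose and 1 fell in HCC1806 and 4 rose in MDAMB468. KRT6B (difference -0.46, adjusted p = 0.112) and DSC2 (-0.26, adjusted p = 0.207) had the smallest p-values, and no difference was called by edgeR (6 of 41 at an unadjusted p under 0.05). Among 34 glycolysis and hypoxia genes, VEGFA rose (0.39) and PGK1, P4HA2 and AK4 fell in HCC1806, NDRG1 rose and PGK1 fell in MDAMB468, and no difference was called (7 of 34 at an unadjusted p under 0.05; median -0.116). None of the 13 protein genes of the mitochondrial genome changed in either line or differed between them by edgeR, and none had an unadjusted p under 0.05.

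**Figure D4:**
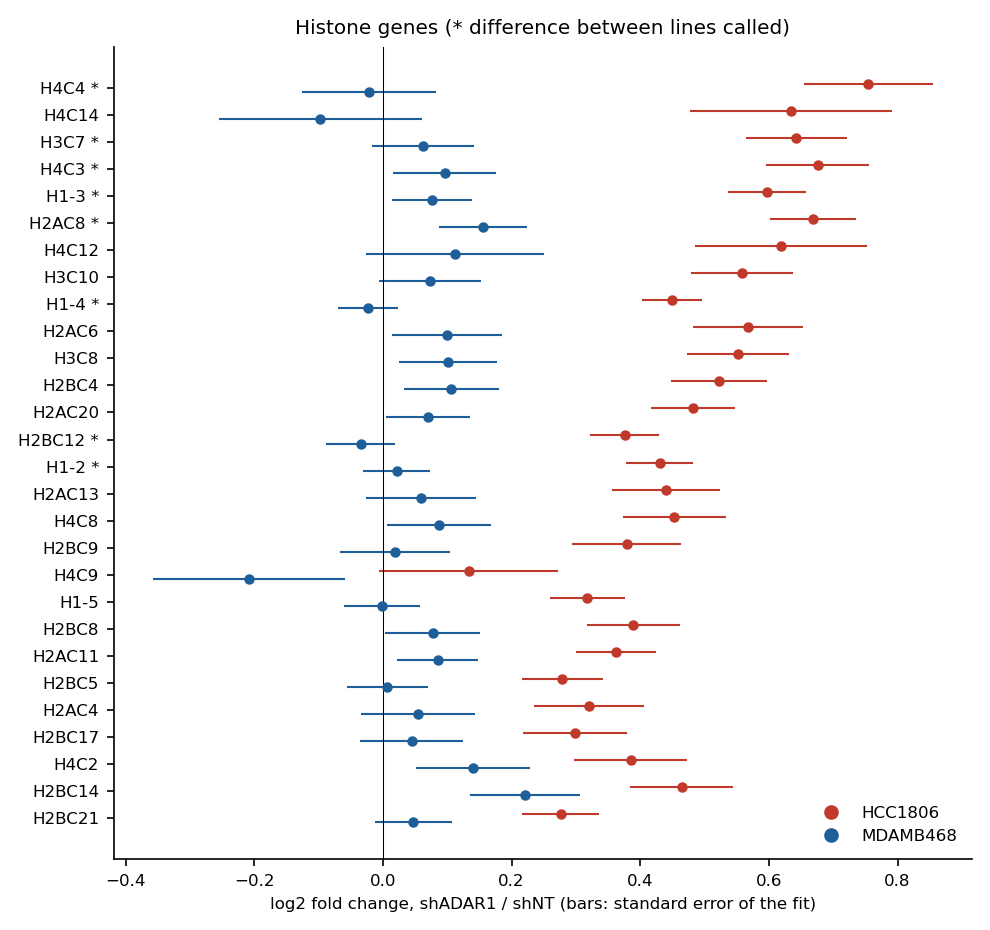
Log2 fold change of shADAR1 against shNT for 28 histone list genes in HCC1806 (red) and MDAMB468 (blue), with the standard error of the edgeR fit as bars and a star at 8 called differences. Every red point lies to the right of its blue point.

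Control levels were compared as a description. The shNT mean was higher in MDAMB468 for 22 of the 47 genes with a higher response in HCC1806 (46.8%), for 16 of the 36 with a lower response (44.4%) and for 48.7% of all genes tested. All but 1 of the 83 are protein-coding.

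In the other lines of the series, fitted with all 24 libraries and blocks, the median change of the histone list was -0.155 in BT549 and 0.211 in MDAMB231, beside 0.454 in HCC1806 and 0.072 in MDAMB468. The inflammatory list's median was 0.195 in BT549 and 0.08 in MDAMB231, the integrated stress response list's was 0.156 and 0.184 (0.219 in HCC1806), and the fatty acid and sterol list's 0.041 and -0.025. DHRS2 had changes of 0.64 (adjusted p = 0.112) in BT549 and 0.72 (adjusted p = 0.106) in MDAMB231. RGMA rose by 1.12 in MDAMB231 (adjusted p = 0.0127), and CXCL2 rose in both, by 0.68 and 0.51.

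Of the 83 genes, 6 were called again whichever pair of libraries was left out: ASNS, CRYAB, DHRS2, HS3ST3B1, KIFC3 and RGMA. DYSF, H1-4 and SESN3 were called in 5 of these 6 fits, and 11 genes in none. The number of calls was 7 without HCC1806 replicate 1, 17 without HCC1806 replicate 3 and 16 without MDAMB468 replicate 2, so that single pairs carry much of the count.

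**Figure D5:**
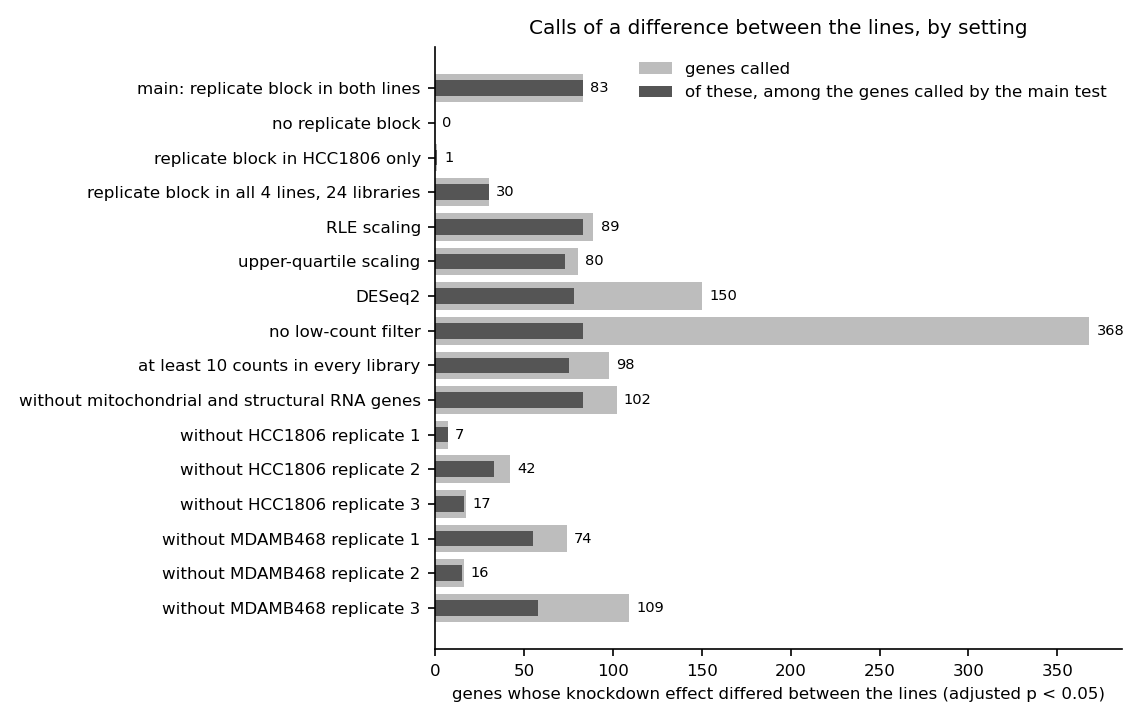
Number of genes called for the difference between the lines under each setting (light bars, with the number), and how many of them are among the 83 (dark bars). The count runs from 0 with no replicate block to 368 with no filter on low counts.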

How the data were processed

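RNA-seq reads were counted per gene by the authors, and the deposited whole-number counts of the 12 libraries were used. Per the submitters' processing notes, STAR, featureCounts and edgeR were used, with versions not repeated here. The genome build, the annotation and the use of strand are not given in the sources used here, and start and end equalled GENCODE 29 for 31334 of 34265 shared genes. Coordinates are as the files list them, and symbols came from a name table (33972 of 37416 genes). Of the list members, 621 of 627 were found.

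Genes were kept by filterByExpr over the 4 groups (19659), scaled by TMM and tested with edgeR 4.0.16 in R 4.3.3 (quasi-likelihood F test, 2-sided). The model had an intercept for each replicate number within a line and a knockdown term per line. The Benjamini-Hochberg adjustment ran over all 19659 genes (threshold 0.05). SE is the fold change divided by the root of F. CPM values are TMM-scaled. Pair differences are of log2 CPM with a prior count of 2. The script was tested on simulated data.

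The block was used because the comparison was defined with it. In HCC1806 the pairing correlations were 0.281, 0.381 and 0.494. In MDAMB468 the third was 0.077, below 0.1, so its numbers are not established as pairs by the data, although in both lines every library correlated best with its own number. Nothing in the labels says what a number shares. Replicates are named biological, with no word on separate cultures or days, so p-values measure the spread between these samples.

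Members and lists were chosen with earlier results of these data known. Named genes were ADAR and MDM2, the 12 largest called differences in each direction with at least 5 CPM in a group mean and no overlap of pair differences, and the 2 members of smallest p per list with at least 1 CPM. COL6A2, APBA2 and others outside it were named after their values were seen. Some genes that the rule takes in are not reported here. Alternatives were scaling, filters, blocks, DESeq2 1.42.0 and leaving out pairs.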

Additional observations from a re-analysis of the deposited data

Results flagged for a closer look

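The effect of ADAR1 knockdown differed between HCC1806 and MDAMB468, by edgeR's test of the difference itself, in the named genes given here. Values are log2 effects of HCC1806 minus MDAMB468, each group having 3 libraries. Higher in HCC1806 were CACNA1B (5.96, a fitted value that depends on the prior count because MDAMB468 knockdown libraries were at 0), TNF (3.65), DHRS2 (2.80), ENSG00000248596 (2.72), CYP1A1 (2.02), RGMA (1.94), TRAF1 (1.58), H3C12 (1.23), NUDT8 (1.18) and BIRC3 (1.08). Also higher were CXCL2 (0.787), ASNS (0.782), KLF10 (0.713), ALDH1L2 (0.642), IRF1 (0.559) and H1-4 (0.473).

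Lower in HCC1806 were HS3ST3B1 (-2.76), CRYAB (-1.07), MTUS2 (-0.926), SESN3 (-0.885), PLEKHG4B (-0.797), USP2 (-0.756), KIFC3 (-0.751), DYSF (-0.609), NR4A2 (-0.608), SOCS3 (-0.598) and SLITRK6 (-0.586). The smaller lower values were those of FASN (-0.376), ITGB4 (-0.331) and DHCR7 (-0.309).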

How the results depend on the processing

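The interaction count of 83 called differences depends on the replicate block: 0 remained without it, 1 with the replicate block in HCC1806 only and 30 with the replicate block in all 4 lines and 24 libraries. DESeq2 called 150 (78 of the 83) and a fit with no filter on low counts 368. In that last fit the median prior degrees of freedom were infinite, against 12.2. Leaving out a pair gave 7 to 109 calls. The HCC1806 knockdown count of 649 became 5 without the block, 105 with the block in HCC1806 only, 1059 with no filter and 141 to 920 without a pair. The MDAMB468 knockdown count of 552 became 9, 60 and 1001 in the same settings, 354 with 24 blocked libraries and 223 to 500 without a pair. The ADAR interaction, its difference between the lines, ran from -0.311 to 0.0592 without a pair and turned positive only without HCC1806 replicate 1. RLE and upper-quartile scaling (89 and 80 calls), a minimum of 10 counts in every library (98) and leaving out mitochondrial and structural RNA genes (102) stayed within 1.5 times. All 83 genes kept their direction where fitted, except APBA2 without MDAMB468 replicate 2. The settings share most or all of the libraries, so kept direction is a description. Other scalings moved the median of all genes by less than 0.1. The cause of the changes was not tested. Few reads limit the MDAMB468 values of TNF, HS3ST3B1, CACNA1B, COL6A2 and APBA2.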
